A study of Mus musculus with 6 samples.

Results

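The mouse Cyp2d cluster is a run of cytochrome P450 genes and pseudogenes on chromosome 15, and its transcripts were compared between livers labelled with a dihydrotestosterone (DHT) pellet and livers labelled placebo. The members were taken by name: Cyp2d9, Cyp2d10, Cyp2d11, Cyp2d13, Cyp2d22, Cyp2d26 and Cyp2d40. Of these 7 genes, 6 had a row of their own among the 49212 rows of the deposited count tables, all 6 passed the filter on low counts, and Cyp2d13 was not analysed here. The 6 rows spanned 424 kb of GRCm38, and Cyp2d9 was the 1 member on the plus strand. RNA was sequenced from the liver of C57BL/6J mice aged 15 weeks in 6 libraries, 3 of the DHT group and 3 of the placebo group. DHT is an androgen that cannot be converted to estrogen, and the labels call the pellet-treated mice PCOS mice, after polycystic ovary syndrome. Per its title, the study is about androgen, the hepatic clock and fatty liver in these mice. The labels give no sex, litter or collection time, and do not state that each library came from a different animal, so that p-values measure the spread between these libraries, which may be technical.

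Enzymes of the Cyp2d subfamily sit in the endoplasmic reticulum, where they take electrons from P450 oxidoreductase and put oxygen into steroids, drugs and other small lipophilic molecules. In mice the subfamily has expanded by duplication into many close copies, whereas humans have a single working copy, CYP2D6, known for its part in drug metabolism. Cyp2d9 hydroxylates testosterone and is a classical male-predominant gene of mouse liver, kept so by the pulsatile release of growth hormone in males.

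Total counts lay between 41336844 and 59257416 in the DHT libraries and between 52814320 and 60209462 in the placebo libraries. Before the comparison, the sex-linked transcripts were looked up. Ddx3y, a Y-linked RNA helicase gene, had 70.5, 68.5 and 73.2 counts-per-million after scaling by the trimmed mean of M-values (TMM-scaled CPM) in the DHT libraries, against 0.103, 0.0591 and 0.0617 in the placebo libraries. The Y-linked Eif2s3y, Uty and Kdm5d split in the same way, with 9.63 ± 0.620 (Kdm5d) to 51.4 ± 5.07 CPM (Eif2s3y) in DHT and 0.00657 ± 0.0114 (Kdm5d) to 0.0591 ± 0.0407 CPM (Eif2s3y) in placebo (SD, n = 3 each). Xist, transcribed from the inactive X, had 0.195, 0.107 and 0.515 CPM in DHT, against 43.4, 25.2 and 255 CPM in placebo. Presence of Y-linked RNA and the DHT label coincided in every library, so a difference by treatment and a difference by sex of the donor animal cannot be told apart in any result that follows. Mitochondrial genes took 6.44, 8.47 and 8.0% of counts in DHT and 6.83, 4.83 and 3.23% in placebo. Of 10 hepatocyte markers 9 had a row and none was called by edgeR, with a summed level of 80364 to 97419 CPM in DHT and 104073 to 144395 CPM in placebo. No gene was called in the marker lists of cholangiocytes, Kupffer cells, sinusoidal endothelium, stellate cells, T and NK cells, B cells, neutrophils or erythroid cells either. Of these 50 tested markers, 12 had an unadjusted p under 0.05, where 15.9% of all genes had one. DESeq2 called 6 of the 50 markers, where it called 7.03% of all genes. The DHT libraries lay wholly below the placebo libraries for 10 of the markers and wholly above for 1. Over all 15126 genes tested, 1654 lay wholly below and 1919 wholly above, together 23.6%. With the replicate number as a block, 6 markers were called lower and 1 higher. That fit called 798 of all genes lower and 823 higher, together 10.7%. In both counts the markers leaned lower in DHT, while all genes did not. Of 4 adipocyte markers, Cfd averaged 24.7 CPM in DHT and 0.0914 CPM in placebo and was called (adjusted p = 0.0134), while the defining markers Adipoq, Lep and Plin1 were at or near 0 in both groups. The 4 markers summed to between 4.38 and 55.4 CPM in the DHT libraries. DESeq2 and the replicate block also called Cfd, while limma voom did not. The part of these differences in the Cyp2d results was not tested. In bulk liver, fewer cells of a type and less RNA per cell cannot be told apart.

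Upstream sequence is shown first, because the members differ at a short stretch described in the mouse Cyp2d9 promoter as a site for the ETS-family factor GABP, with a CpG whose methylation differs between male and female liver. RefSeq promoters of build GRCm38.p6 were matched for 5 of the 7 members (Cyp2d9, Cyp2d10, Cyp2d11, Cyp2d26 and Cyp2d40). The 150 bases before the first base of the counted row are given 5′ to 3′ for 4 of them, with capitals marking the 8 bases of that stretch in Cyp2d9 and the 8 bases aligned to it in the other promoters. They lie at chr15:82452227-82452376 (plus strand) for Cyp2d9, chr15:82394023-82394172 (minus) for Cyp2d11, chr15:82407195-82407344 (minus) for Cyp2d10 and chr15:82764184-82764333 (minus) for Cyp2d40, whose RefSeq start lies 61 bases inside the counted row.
Cyp2d9: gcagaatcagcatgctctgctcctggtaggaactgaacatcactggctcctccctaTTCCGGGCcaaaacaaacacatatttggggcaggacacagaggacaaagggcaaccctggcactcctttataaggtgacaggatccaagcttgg
Cyp2d11: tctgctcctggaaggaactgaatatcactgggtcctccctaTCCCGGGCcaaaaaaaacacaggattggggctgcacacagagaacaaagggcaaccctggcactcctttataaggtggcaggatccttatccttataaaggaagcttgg
Cyp2d10: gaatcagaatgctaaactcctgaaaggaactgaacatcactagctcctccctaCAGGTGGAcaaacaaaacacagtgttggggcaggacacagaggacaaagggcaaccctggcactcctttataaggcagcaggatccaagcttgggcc
Cyp2d40: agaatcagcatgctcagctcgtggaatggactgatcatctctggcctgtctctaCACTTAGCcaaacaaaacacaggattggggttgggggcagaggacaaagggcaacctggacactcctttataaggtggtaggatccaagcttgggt

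The promoters of Cyp2d9, Cyp2d10, Cyp2d11 and Cyp2d40 were closer to each other than to that of Cyp2d26. Over the 150 bases, with the stretch included, the Cyp2d9 promoter shared 91.1% of aligned bases with Cyp2d11 (123 of 135), 85.7% with Cyp2d10 (126 of 147), 79.1% with Cyp2d40 (117 of 148) and 66.7% with Cyp2d26 (88 of 132). Within the stretch, 94 to 87 bases before the Cyp2d9 row, Cyp2d11 had 7 of the 8 bases and differed by T2C, counted from the 5′ end of the stretch with the Cyp2d9 base first. Cyp2d40 had 3 of the 8 bases and Cyp2d10 had 2 of the 8. Searched on both strands of the 250 bases upstream of the start, TTCCGGGC was present in Cyp2d9 alone of the 5 matched members, and in 1.10% of 32851 RefSeq promoters. Other motifs, not named here, were searched in the same windows, and none of them was present in Cyp2d9. A match to another motif was present in Cyp2d10, Cyp2d11 and Cyp2d26, so TTCCGGGC was not the only motif sought. The run CTTTATAAGG, which holds a TATA-like core, was present in all 5 members, 29 bases before the row in Cyp2d9, and in 0.0487% of all promoters. A 19-base run, CAGAGGACAAAGGGCAACC, was shared by Cyp2d9, Cyp2d10 and Cyp2d40 and by no other of the 32851 promoters. Both runs were picked as the longest shared by the promoters named, and TTCCGGGC was taken from the Cyp2d9 promoter. Their presence in those members was therefore fixed by the choice, and long runs are rare by their length alone. These matches describe letters in a window and are not measurements of binding.

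Cyp2d9 was far more abundant in the DHT livers than in the placebo livers, and it was the single member called by edgeR's quasi-likelihood test at a Benjamini-Hochberg adjusted p under 0.05. Cyp2d9 (chr15:82452377-82456827, plus strand, 9 exons, 1651 exonic bases) had 636, 840 and 1006 TMM-scaled CPM in DHT replicates 1 to 3, from 39212, 47003 and 44953 counts, against 37.0, 79.1 and 60.1 CPM in placebo replicates 1 to 3, from 2153, 4013 and 2923 counts. The lowest DHT library stood well above the highest placebo library. The log2 fold change was 3.82 ± 0.38 (SE), a 14.1-fold difference with a 95% interval of 7.63 to 26.0, at an adjusted p of 0.00400. Called genes, in either direction, made up 1.65% of the 15126 genes tested, those higher in DHT 0.952% and those lower 0.701%, and 1 of the 6 members was called, higher. Cyp2d9 was called in all 6 fits that left out a library, with adjusted p between 0.00145 and 0.0216 and log2 fold changes between 3.55 and 4.07. The count of all called genes, 250 with every library, was 95, 84 and 165 without DHT replicates 1, 2 and 3 and 94, 105 and 862 without placebo replicates 1, 2 and 3.

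**Figure D1:**
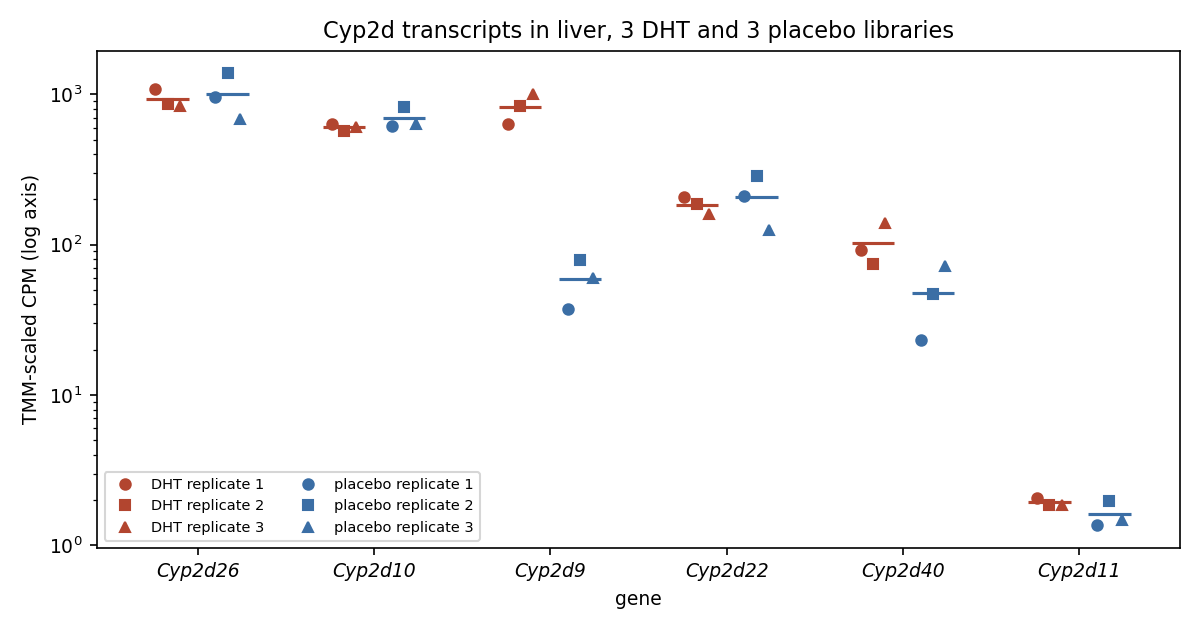
TMM-scaled CPM of each member on a log axis, in DHT (red, left of each pair) and placebo (blue, right) livers, with 1 point per library and a line at the mean of 3. Cyp2d9 is at 636 to 1006 CPM in DHT and 37.0 to 79.1 CPM in placebo, while the points of Cyp2d26, Cyp2d10, Cyp2d22 and Cyp2d11 overlap between groups.

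For Cyp2d10 and Cyp2d26, the 2 other abundant members, no difference was detected. Cyp2d10 (chr15:82402846-82407194, minus strand) had 636, 572 and 608 CPM in DHT, against 617, 821 and 634 CPM in placebo, and the groups overlapped. Its log2 fold change was -0.19 ± 0.25 (SE; edgeR adjusted p = 0.743), and the 95% interval of the fold, 0.586 to 1.31, leaves room for a modest difference. Cyp2d26 (chr15:82790107-82794245, minus strand) had 1085, 861 and 835 CPM in DHT, against 967, 1378 and 683 CPM in placebo. The 3 DHT values lay inside the placebo range, with a log2 fold change of -0.12 ± 0.32 (adjusted p = 0.884; interval of the fold 0.550 to 1.53).

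Cyp2d22, the member with the longest counted exons (2771 bases) and often compared with human CYP2D6, had 206, 186 and 161 CPM in DHT, against 211, 288 and 125 CPM in placebo. The DHT values again lay inside the placebo range, and the log2 fold change was -0.18 ± 0.34 (adjusted p = 0.834; interval of the fold 0.519 to 1.51). The signs of Cyp2d22 and Cyp2d26 were not stable: with library size alone as the scale, where the median of all genes moved to 0.17 from -0.02, they were 0.01 and 0.06, and without placebo replicate 2 they were 0.12 and 0.16. Cyp2d11, whose transcript is the closest to Cyp2d9 in sequence among the members, was scarce in every library. It had 2.06, 1.86 and 1.86 CPM in DHT, against 1.36, 1.97 and 1.48 CPM in placebo, from 83 to 127 counts in DHT and 72 to 100 in placebo, with a log2 fold change of 0.27 ± 0.31 (adjusted p = 0.707; interval of the fold 0.735 to 1.97).

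Cyp2d40, a member with 6 counted exons (chr15:82759835-82764183, minus strand), had 92.3, 74.3 and 140 CPM in DHT, against 23.1, 47.0 and 72.5 CPM in placebo. The groups did not overlap, but DHT replicate 2 was barely above placebo replicate 3, and in each group the library numbered 3 was highest. The log2 fold change of 1.10 ± 0.44 missed the threshold (edgeR adjusted p = 0.273), with a 95% interval of the fold from 1.07 to 4.30. With the replicate number as a block, a fit that called 10.7% of all genes, it was 1.20 ± 0.29 and passed (adjusted p = 0.00256). Without placebo replicate 3 it was 1.54 and passed as well (adjusted p = 0.0480). In all, Cyp2d9 and Cyp2d40 were the 2 of 6 members whose groups did not overlap, where 23.6% of all tested genes had groups that did not overlap.

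**Figure D2:**
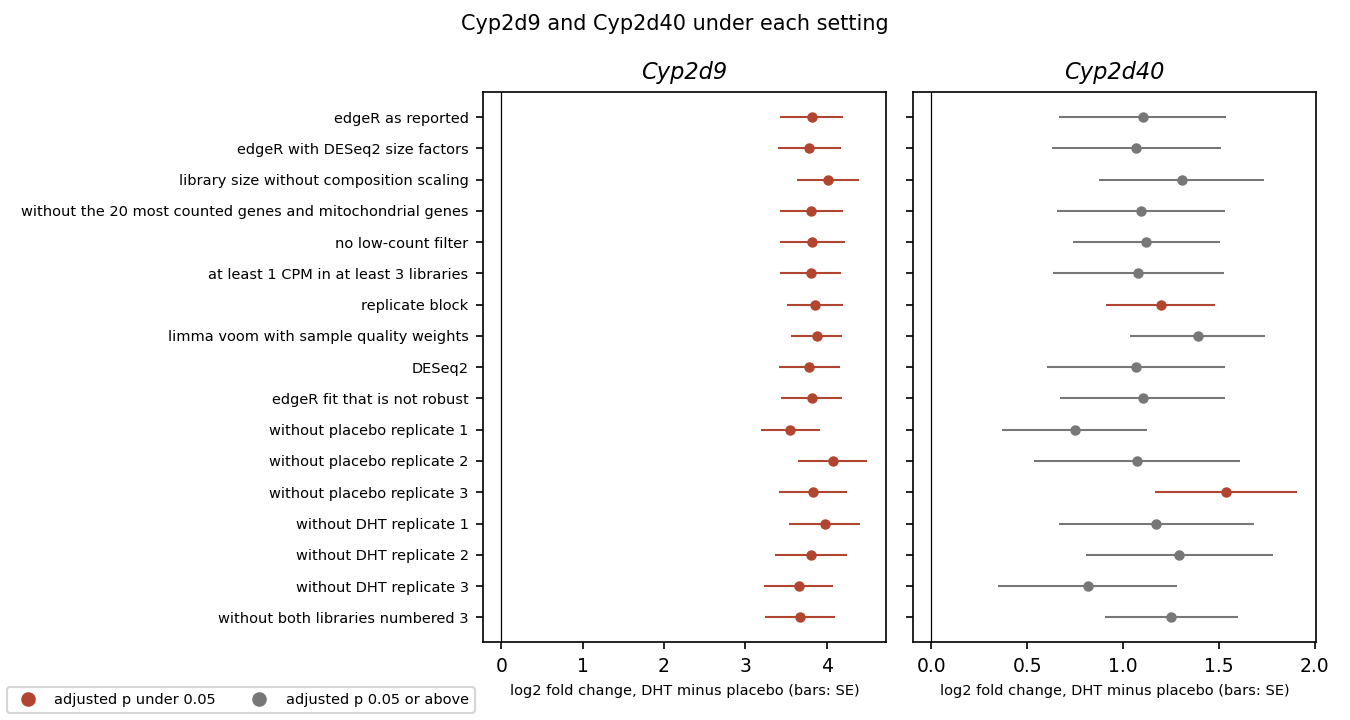
Log2 fold change, DHT minus placebo, of Cyp2d9 (left panel) and Cyp2d40 (right panel) under each way of fitting, with bars of 1 SE and red points for an adjusted p under 0.05. Cyp2d9 keeps between 3.55 and 4.07 and is red throughout, while Cyp2d40 ranges from 0.75 to 1.54 and is red with the replicate block and without placebo replicate 3.

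The members also differed in how evenly the libraries of a group read them. The highest over the lowest library was 1.11 for Cyp2d10 and Cyp2d11 and 1.88 for Cyp2d40 in DHT, where the median tested gene had 1.40. In placebo the same ratio was 1.33 for Cyp2d10 and 3.14 for Cyp2d40, where the median tested gene had 2.04. Cyp2d10 was thus the steadiest member of the placebo group and Cyp2d40 the most variable member of both groups.

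Levels of different members were compared per kilobase of counted exon. In DHT livers the order, in TMM-scaled CPM per kb, was Cyp2d26 at 564 ± 83.4, Cyp2d9 at 501 ± 112, Cyp2d10 at 367 ± 19.7, Cyp2d40 at 87.9 ± 29.0, Cyp2d22 at 66.4 ± 8.16 and Cyp2d11 at 1.21 ± 0.0739 (SD, n = 3). The ranges of neighbours in this order overlapped except between Cyp2d10 and Cyp2d40 and between Cyp2d22 and Cyp2d11. In placebo livers the order was Cyp2d26 at 614 ± 213, Cyp2d10 at 419 ± 68.8, Cyp2d22 at 75.1 ± 29.5, Cyp2d40 at 40.9 ± 21.3, Cyp2d9 at 35.6 ± 12.8 and Cyp2d11 at 1.01 ± 0.204 (SD, n = 3). Neighbours overlapped there except between Cyp2d10 and Cyp2d22 and between Cyp2d9 and Cyp2d11. Ranked per kb among 120 P450 rows, Cyp2d9 was the 4th, 3rd and 2nd most abundant in DHT replicates 1 to 3 and the 37th, 39th and 38th in placebo replicates 1 to 3. Cyp2d10 lay between ranks 3 and 5 in DHT and between 7 and 13 in placebo, and Cyp2d26 between 2 and 3 in DHT and between 3 and 8 in placebo.

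The make-up of the Cyp2d transcript pool differed accordingly. Cyp2d9 took 24.3, 33.7 and 36.6% of the members' summed counts per kb in DHT, against 2.07, 3.13 and 3.85% in placebo. Its share averaged 31.5 ± 6.42% in DHT and 3.02 ± 0.894% in placebo (SD, n = 3 each), a difference of 28.5 percentage points with a two-sided exact permutation p of 0.1, the smallest that 3 against 3 libraries allow. Cyp2d9 had 1.0, 1.47 and 1.65 counts for each Cyp2d10 count in DHT, against 0.0600, 0.0963 and 0.0948 in placebo. On the log2 scale this ratio differed by 4.04 between the groups, with means of 0.43 ± 0.38 in DHT and -3.61 ± 0.39 in placebo. The log2 ratio of Cyp2d9 to the other 4 members differed by 2.66 (Cyp2d40), 3.58 (Cyp2d11), 3.93 (Cyp2d26) and 3.96 (Cyp2d22). Over these 5 comparisons every DHT library lay above every placebo library, and each exact permutation p was 0.1, also after Benjamini-Hochberg adjustment. All 5 ratios share the Cyp2d9 row, so they are not 5 separate results.

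**Figure D3:**
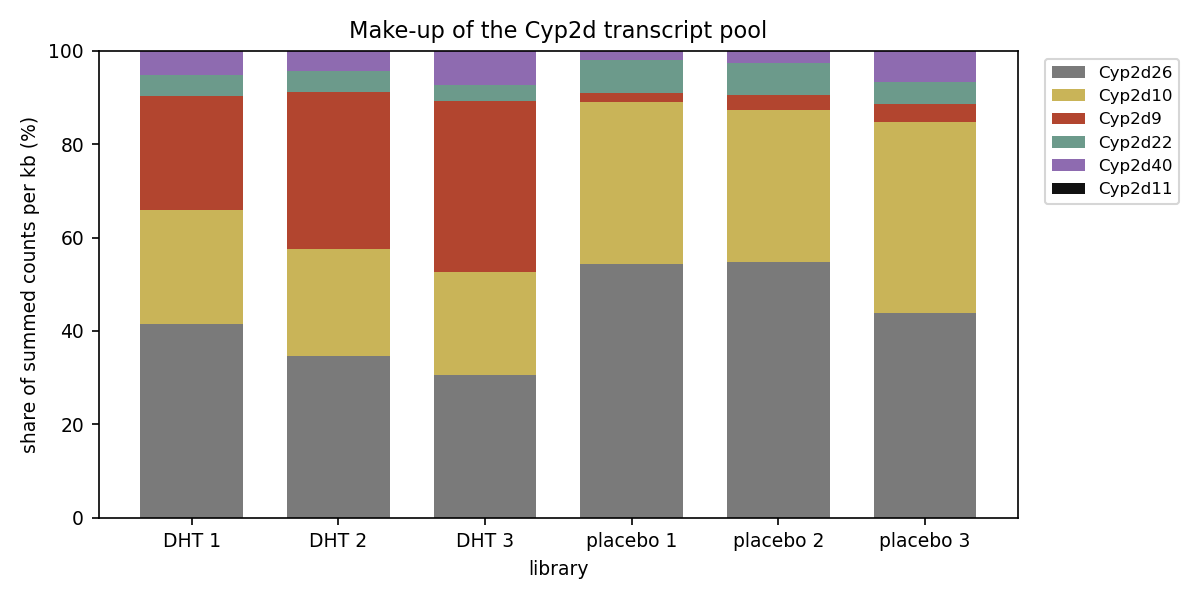
Share of each member in the summed counts per kb (%), 1 bar per library, DHT libraries left of placebo libraries. The Cyp2d9 band covers 24.3 to 36.6% in DHT and 2.07 to 3.85% in placebo, and Cyp2d11 is too scarce to see.

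Summed over the members, no difference passed the test. The 6 rows together held 2658, 2535 and 2750 TMM-scaled CPM in DHT, against 1857, 2616 and 1576 CPM in placebo, or 0.274 to 0.297% of all counts in DHT and 0.145 to 0.241% in placebo. Fitted as a single row, the sum had a log2 fold change of 0.39 ± 0.28 (edgeR adjusted p = 0.524), and DHT replicate 2 lay below placebo replicate 2. Without Cyp2d9 the sum was 2022, 1695 and 1745 CPM in DHT, against 1820, 2537 and 1516 CPM in placebo, so the groups overlapped widely.

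Reads of close copies may be shared between rows, because how the authors treated reads that map to several places is not given in the sources used here. Transcripts of Cyp2d9 shared 93.4% of aligned bases with Cyp2d11, 91.6% with Cyp2d10, 83.4% with Cyp2d40, 80.3% with Cyp2d26 and 76.5% with Cyp2d22. Of all 150-base stretches of the Cyp2d9 transcript, the length of 1 read of a pair, 1.54% (24 of 1563) occurred without a mismatch in a transcript of another Cyp2 gene. The same share was 6.40% for Cyp2d10 and 5.62% for Cyp2d11, and 0 for Cyp2d22, Cyp2d26 and Cyp2d40. A 60-base small-RNA row lay inside Cyp2d9, Cyp2d10 and Cyp2d11 each and had 0 counts in all libraries.

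Next to the members, 4 further Cyp2d rows were counted, and none of the 3 that passed the low-count filter was called by edgeR. Of these 3, 2 had an unadjusted p under 0.05, where 15.9% of all tested genes had one. Cyp2d12, whose transcript shares 91.4% of aligned bases with Cyp2d9 and which lies on the same strand, had 1.41, 2.09 and 1.77 CPM in DHT, against 0.378, 0.453 and 0.987 CPM in placebo. Its groups did not overlap, with a log2 fold change of 1.54 ± 0.45 (edgeR adjusted p = 0.160). The replicate block gave 1.63 (adjusted p = 0.00812), leaving out placebo replicate 3 gave 2.07 (adjusted p = 0.0193), and DESeq2 and limma voom, which called 7.03% and 4.67% of all genes, also called it (0.0273 and 0.0374). Those were the 4 of 16 alternatives that called Cyp2d12. Of the 6 fits that left out a library, 1 called it, with edgeR adjusted p up to 0.477 in the others. The pseudogene Cyp2d37-ps had 7.03, 11.1 and 28.6 CPM in DHT, against 2.84, 3.21 and 15.1 CPM in placebo, so that its groups overlapped through the high placebo replicate 3. Its log2 fold change was 1.14 ± 0.75 (adjusted p = 0.485), and 1.33 with the replicate block (adjusted p = 0.000772). Without placebo replicate 3 it was 2.36 (adjusted p = 0.0806), without DHT replicate 3 it was 0.37 (adjusted p = 0.867), and without both it was 1.58 and passed (adjusted p = 0.0484). The pseudogene Cyp2d41-ps, whose transcript shares 94.9% of aligned bases with Cyp2d40, had 1.06, 1.13 and 1.54 CPM in DHT, against 0.533, 0.414 and 0.720 CPM in placebo, with a log2 fold change of 1.16 ± 0.39 (adjusted p = 0.206). Cyp2d34 had 3 to 11 counts in DHT and 3 to 7 in placebo and was not tested. The median log2 fold change was 1.16 over these 3 rows, 0.07 over the 6 members and -0.02 over all genes tested.

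RefSeq places Cyp2d13, a transcribed pseudogene, at chr15:82636750-82642045 of GRCm38.p6. Inside that span the count tables hold the 57-base row Gm27463 (chr15:82641945-82642001), which had 2.61, 2.16 and 7.45 CPM in DHT, against 0.602, 1.62 and 3.52 CPM in placebo. Its groups overlapped, and its log2 fold change was 1.09 ± 0.69 (edgeR adjusted p = 0.472; 0.0268 with the replicate block). As with Cyp2d40 and Cyp2d37-ps, the library numbered 3 was the highest of each group.

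None of the 8 tested genes around the cluster was called, where edgeR called 1.65% of all genes, so few calls could be looked for among 8. Of 27 rows other than Cyp2d within 200 kb of the members, 8 were tested, Gm27463 among them, with a median log2 fold change of -0.12. DESeq2 and limma voom, which called 7.03% and 4.67% of all genes, called none of them either. At an unadjusted p under 0.05, where 15.9% of all tested genes stood, was Cenpm alone, a centromere protein gene. It had 1.46, 4.09 and 2.66 CPM in DHT against 5.68, 7.68 and 5.37 CPM in placebo. Its log2 fold change was -1.19 ± 0.40 (adjusted p = 0.213; 0.00574 with the replicate block). Ndufa6, a gene of respiratory complex I, had a log2 fold change of -0.62 ± 0.38 (edgeR adjusted p = 0.454).

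**Figure D4:**
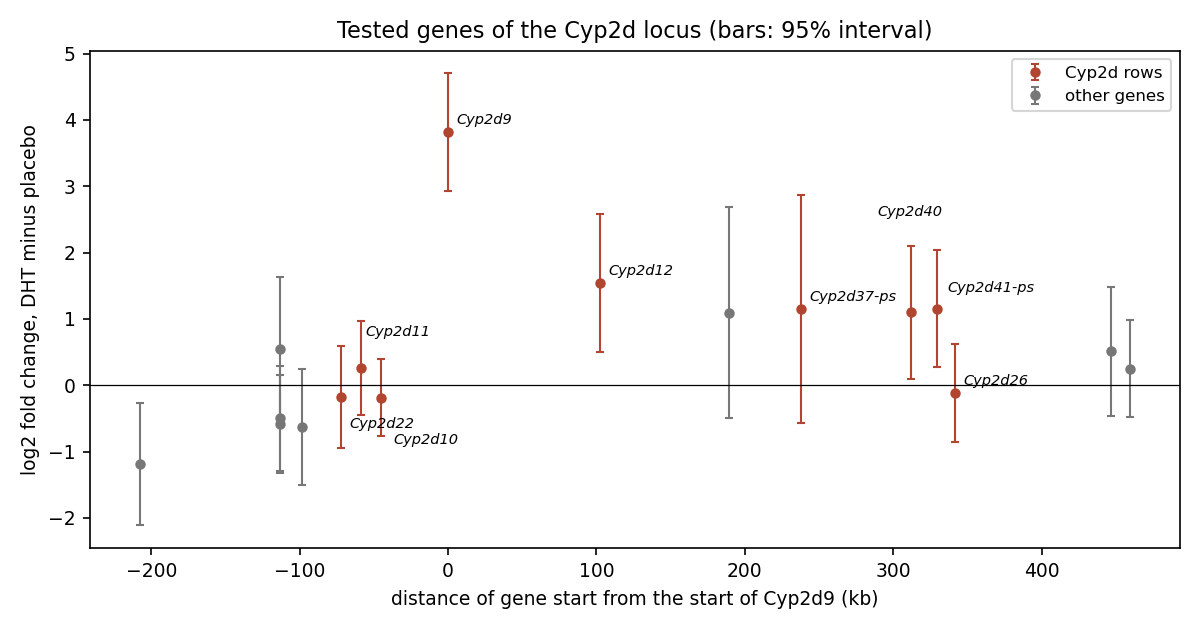
Log2 fold change, DHT minus placebo, of every tested gene of the locus against the distance of its start from that of Cyp2d9 (kb), with 95% intervals, in red for Cyp2d rows and grey for other genes. Cyp2d9 stands at 3.82, and the next highest row is Cyp2d12 at 1.54.

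P450 enzymes depend on electron donors, and a list of 7 genes of donors and haem-binding partners was tested. It held Por, Cyb5a, Cyb5b, Cyb5r1, Cyb5r3, Pgrmc1 and Pgrmc2. None was called higher, by edgeR, DESeq2 or limma voom, and 1 was called lower, with a median log2 fold change of -0.04. That 1 gene is 14.3% of those tested, where edgeR called 1.65% of all genes in either direction and 0.701% lower. Por, the oxidoreductase that feeds electrons to every microsomal P450, had 157, 114 and 98.1 CPM in DHT, against 883, 1284 and 552 CPM in placebo. The highest DHT library stood far below the lowest placebo library, and the log2 fold change was -2.88 ± 0.39 (edgeR adjusted p = 0.0125). The call was lost without placebo replicate 1 (adjusted p = 0.0545) and without DHT replicate 2 (adjusted p = 0.0818). Livers of the DHT group thus held more Cyp2d9 RNA beside less Por RNA. Pgrmc2, a haem-binding partner of P450 enzymes, stood at 0.86 ± 0.33 on the log2 scale (adjusted p = 0.256; 0.0240 with the replicate block), and Cyb5b, an outer-membrane cytochrome b5, at 0.70 ± 0.31 (adjusted p = 0.319).

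Among 25 genes known to regulate sex-dependent or hepatic P450 transcription, 2 were called lower and none higher, with a median log2 fold change of 0.01. That is 8.0% of those tested, against 1.65% of all genes called in either direction and 0.701% called lower. Cux2, a transcription factor found mainly in female mouse liver and known to repress male-biased genes, had 0.227, 0.143 and 0.224 CPM in DHT, against 27.1, 37.4 and 12.2 CPM in placebo. Its log2 fold change was -7.00 ± 0.54 (edgeR adjusted p = 0.00111), and it was called in all 6 fits that left out a library. Esr1, the estrogen receptor alpha gene, had 21.5, 11.7 and 12.7 CPM in DHT, against 86.2, 109 and 61.5 CPM in placebo, with a log2 fold change of -2.48 ± 0.35 (adjusted p = 0.0141). That call was lost without placebo replicate 1 (adjusted p = 0.0666), placebo replicate 2 (0.0504), DHT replicate 2 (0.0891) or DHT replicate 3 (0.0567). Socs2, a growth hormone target that dampens its receptor, had 9.80, 5.38 and 15.7 CPM in DHT, against 45.2, 21.7 and 41.1 CPM in placebo. Its log2 fold change, -1.80 ± 0.45, missed the threshold (adjusted p = 0.104), and it was called with the replicate block (1.25e-06), no low-count filter (0.0143), limma voom (0.0322) and DESeq2 (0.00277). Those were 4 of 16 alternatives, and none of the 6 fits that left out a library called Socs2 (edgeR adjusted p between 0.0833 and 0.332). Stat5a, Stat5b, Gabpa, Gabpb1 and Rsl1, named for a known role after their values were seen, were not called. Stat5a, a factor activated by growth hormone, had 16.4, 14.4 and 14.0 CPM in DHT, against 7.62, 12.8 and 6.29 CPM in placebo, without overlap, at 0.75 ± 0.31 on the log2 scale (adjusted p = 0.296). The log2 fold change was 0.32 for Stat5b, its close relative, -0.07 for Gabpa and 0.31 for Gabpb1, which encode the GABP subunits, and 0.13 for Rsl1, a zinc finger repressor of male-specific liver genes (adjusted p between 0.626 and 0.925).

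The rest of the P450 superfamily was set beside Cyp2d9. Of 110 other P450 rows, 70 were tested, 6 were called higher and 12 lower, and their median log2 fold change was -1.0. That is 25.7% of those tested, against 1.65% of all genes. The counts higher and lower were 12 and 28 with the replicate block, 11 and 31 with DESeq2, 7 and 22 with limma voom, and 3 and 11 with a filter of at least 1 CPM in at least 3 libraries. Leaving out 1 library moved the higher count between 2 (without placebo replicate 1, DHT replicate 2 or DHT replicate 3) and 7 (without placebo replicate 3), and the lower count between 4 (without DHT replicate 2) and 18 (without placebo replicate 3). Cyp4a12a, a male-predominant fatty acid hydroxylase, had 5061, 10717 and 4399 counts in DHT, against 5, 16 and 16 in placebo, a log2 fold change of 9.0 ± 0.65 (edgeR adjusted p = 0.000806). Its close copy Cyp4a12b stood at 8.86 ± 0.96 (adjusted p = 0.00518), a call lost without placebo replicate 1 (0.0508). Cyp21a1, a steroid hydroxylase of the adrenal, had 19, 40 and 13 counts in DHT, against 0 counts in each placebo library, and was called (adjusted p = 0.0360). That call was lost when placebo replicate 1, placebo replicate 2 or any DHT replicate was left out (adjusted p between 0.0530 and 0.128). Cyp2c69 had 1.19 ± 0.0599 CPM in DHT and 1029 ± 298 CPM in placebo (SD, n = 3 each), a log2 fold change of -9.76 ± 0.43 (adjusted p = 4.22e-05). The female-predominant Cyp3a41a and its near-identical copy Cyp3a41b, whose counts are uncertain for that reason, stood at -10.01 ± 1.59 (adjusted p = 0.0231) and -9.13 ± 1.66 (adjusted p = 0.0391). Without each library other than placebo replicate 1 in turn, both calls were lost, at 0.0520 to 0.127 for Cyp3a41a and 0.0884 to 0.148 for Cyp3a41b. The other P450 genes named here were picked as the 3 largest called rises and the 3 largest called falls. Their log2 fold changes, larger in size than the 3.82 of Cyp2d9, therefore give no scale for the superfamily.

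The genes whose pattern over the 6 libraries was most like that of Cyp2d9 were found by the root mean square difference of log2 CPM centred on the placebo mean, among 11956 tested genes with a mean of at least 1 CPM. This measure follows the size of the group difference as well as the order of libraries within a group. Clstn3, a calsyntenin gene on chromosome 6, was nearest at 0.287, with 43.1 ± 2.35 CPM in DHT and 2.88 ± 1.17 CPM in placebo (SD, n = 3 each). Mapk15, an atypical MAP kinase gene elsewhere on chromosome 15 (chr15:75993769-75999152), followed at 0.366, with 13.9 ± 2.02 CPM in DHT and 0.828 ± 0.192 CPM in placebo. Phospho1, a phosphatase gene, stood at 0.496, the unnamed RP24-282C4.11 at 0.540 and the zinc finger gene Zfp979 at 0.558. Their log2 fold changes ran from 3.36 (RP24-282C4.11) to 4.07 (Mapk15), and all were called, that of Zfp979 not without placebo replicate 1 (adjusted p = 0.0512).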

How the data were processed

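Liver RNA was sequenced in 3 libraries of DHT-pellet mice and 3 of placebo mice, from an NEB Next Ultra RNA kit read as pairs of 150 bp, per the labels' protocols. The authors deposited 1 table of raw gene counts per library with exon coordinates, per the file headers. The submitters' processing notes name Trimmomatic 0.36, STAR 2.5.2b, featureCounts, Subread 1.5.2 and the build GRCm38. Not given in the sources used here were the strand setting, the handling of reads with several hits, and whether reads or pairs were counted, so counts of close Cyp2d copies are uncertain.

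In R 4.3.3, edgeR 4.0.16 was fitted to all 6 libraries: filterByExpr by group (15126 of 49212 rows kept), TMM factors (0.921 to 1.08), glmQLFit with robust estimation and glmQLFTest, with Benjamini-Hochberg adjustment over all genes tested. A gene was called at an adjusted p under 0.05. SEs are the log2 fold change over the square root of F. CPM are TMM-scaled. Single values used two-sided exact permutation over libraries. On counts simulated from these libraries, the same fit called 83% of 100 genes changed 4-fold and 100% of 100 genes changed 16-fold. Among the 14875 genes, the fit also called 12 that were not changed. Genes were drawn independently, with as many rises as falls. Deviations shared by the genes of a library were not simulated, so these rates may not carry over to the real counts. Members, lists and named genes were chosen with earlier results of these data known. Named were all members, all other Cyp2d rows, in each list the called genes and the 3 of smallest p, the 3 largest called rises and falls of other P450 genes, 5 sex-linked genes and the 5 genes most like Cyp2d9. Further regulators named (Stat5a, Stat5b, Gabpa, Gabpb1, Rsl1) were picked for their known role after their values were seen. One gene named by this rule is not reported here.

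The groups share replicate numbers 1 to 3, which no label ties to a litter or day. Between same-numbered libraries, deviations from group means correlated at 0.23, 0.14 and 0.59, so a fit blocked on that number is given beside the Cyp2d rows and named genes whose call it changed. DHT replicate 1 correlated more with placebo replicate 2 (0.44), and DHT replicate 2 more with placebo replicate 1 (0.28). Only DHT replicate 3 correlated most with the placebo library of its own number, so the numbers may not pair the libraries. Alternatives were other scalings, other low-count filters, DESeq2 1.42.0, limma 3.58.1 with voom quality weights, edgeR without the robust option, and leaving out libraries.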

Additional observations from a re-analysis of the deposited data

How the results depend on the processing

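Cyp2d9 was called under all 16 alternatives, with log2 fold changes from 3.55 to 4.07. The sum of the members stayed above 0 and was called in none, and Cyp2d10, Cyp2d11, Cyp2d22 and Cyp2d26 were called in none. The negative log2 fold changes of Cyp2d22 and Cyp2d26 turned positive with library size alone, at 0.0103 and 0.0640, and without placebo replicate 2, at 0.12 and 0.16, of leave-one-out ranges from -0.44 to 0.12 and from -0.34 to 0.16. Cyp2d40 passed with the replicate block at 1.20 and without placebo replicate 3 at 1.54, and ranged from 0.75 to 1.54 over the leave-one-out fits. The replicate block changed no other call of a member. The number of genes called, 250, was 521 with no low-count filter, 1621 with the replicate block, 707 with limma voom, 1062 with DESeq2, 448 without both libraries numbered 3, and 84 to 862 when 1 library was left out. The Cyp2d9 share differed by 26.0 to 32.1 percentage points and its log2 ratio to Cyp2d10 by 3.81 to 4.25 when 1 library was left out, where the smallest exact p is 0.2. The causes were not tested. With 3 libraries a group, the interval of the Cyp2d10 fold still runs from 0.586 to 1.31.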
